A study of Mus musculus with 6 samples.

Results

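The granzymes and perforin were followed across the 6 RNA-Seq libraries of a study on CD8+ T cells and static magnetic fields. The members were *Gzma*, *Gzmb*, *Gzmc*, *Gzmd*, *Gzme*, *Gzmf*, *Gzmg*, *Gzmk*, *Gzmm* and *Prf1*, matched by gene name, which gave 9 granzymes and 1 perforin gene, 10 of the 54446 genes in the files. Of the 10, 4 passed a filter at a mean of 1 FPKM (fragments scaled to transcript length and to library size) and were tested, namely *Gzma*, *Gzmb*, *Gzmc* and *Prf1*. The other 6 were listed at 0 in all 6 libraries.

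The cells were CD8+ T cells taken by negative selection from the spleens of wild type C57BL/6 mice, 8 weeks old. In each of the 3 groups there were 2 libraries. Unstimulated cells were used fresh. Control cells had been cultured for 72 h on plates coated with antibodies to CD3 and CD28, with no magnets. SMF-treated cells received the same antibodies for 72 h while their plates stood on permanent magnets of 0.3 T. No source used here says whether the libraries of a group came from separate mice or cultures, so the p values measure the spread between these libraries, which may be technical. The depth, computed from the deposited FPKM and coverage, was 90.3 and 174 Mb of mapped bases for unstimulated replicates 1 and 2, 83.9 and 217 Mb for control replicates 1 and 2, and 311 and 273 Mb for SMF replicates 1 and 2. The file headers carry 3 dated folders. Unstimulated and control replicate 1 share one folder, unstimulated and control replicate 2 share another, and both SMF libraries are in a folder of their own. As 0 folders held both SMF and control libraries, the field and the folder cannot be told apart. The markers of the labelled cell type (*Cd8a*, *Cd8b1*, *Cd3d*, *Cd3e*, *Cd3g* and *Trac*) were all above 0 in every library, and *Cd8a*, the CD8 alpha chain, was at 92.5 and 105 FPKM in unstimulated cells, 35.5 and 59.98 FPKM in control cells and 192 and 186 FPKM in SMF-treated cells. *Cd8b1*, the beta chain, was at 143 and 271, 50.3 and 123, and 94.6 and 91.9 FPKM in the same order, so that both chains were lower in control than in unstimulated cells and parted in SMF-treated cells. Both were called lower in control cells, where the calls were lost with scaling to *Actb* and without some single libraries (either unstimulated one or control replicate 1). The call of *Cd8a* was also lost with one median for every library, and that of *Cd8b1* with no variance trend and with only the 2 groups compared. In SMF-treated against control cells *Cd8a*, *Cd3d* and *Trac* were called higher (log2 2.01, 1.40 and 1.10), while *Cd8b1*, *Cd3e* and *Cd3g* (0.24, 0.20 and 0.95) were not. The 3 calls were lost with scaling to *Actb*, and that of *Trac* also with one median for every library and without SMF replicate 2 or control replicate 1. *Cd3g* was called higher in 4 of the 14 alternative settings, with gene TPM, with one FPKM sum for every library, without SMF replicate 2 and without control replicate 2.

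Cytotoxic T cells kill by releasing granules onto a target cell. Perforin forms pores in membranes, and granzymes, a family of serine proteases, enter the target through them and cleave its proteins, with granzyme B cutting after aspartate and granzyme A after basic residues. Resting CD8+ T cells hold few such granules, and stimulation through the T cell receptor together with interleukin-2 is known to build them up.

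The genes lie in separate clusters of the mouse genome (GRCm38). The 6 genes *Gzmb* to *Gzmg* lie within 145 kb of chromosome 14, with *Gzmb* at chr14:56258838-56262260 on the minus strand and *Gzmc* at chr14:56231441-56234656, 24.2 kb away. *Gzma* (chr13:113093825-113100981, minus strand) lies near *Gzmk* on chromosome 13. *Prf1* (chr10:61297833-61304680, plus strand) and *Gzmm* are both on chromosome 10 and far apart. All of these positions were the same in the GENCODE M21 annotation.

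*Gzmd* to *Gzmg* are close copies of one another, so reads could be shared between them. The first 60 coding bases of the chromosome 14 granzymes (GENCODE M21 transcripts, GRCm38) are shown to let the copies be compared, with capitals for each base that differs from *Gzmd* at the same position.
Gzmb: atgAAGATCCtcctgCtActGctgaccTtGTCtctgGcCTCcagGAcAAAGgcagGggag
Gzmc: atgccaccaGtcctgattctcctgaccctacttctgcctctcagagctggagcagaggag
Gzmd: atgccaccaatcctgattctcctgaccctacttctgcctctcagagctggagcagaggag
Gzme: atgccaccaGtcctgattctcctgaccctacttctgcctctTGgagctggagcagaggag
Gzmf: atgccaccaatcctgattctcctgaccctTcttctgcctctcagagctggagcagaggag
Gzmg: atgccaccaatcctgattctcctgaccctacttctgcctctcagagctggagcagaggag
In this stretch *Gzmb* differed from *Gzmd* at 25 positions, while *Gzmc* and *Gzmf* each differed at 1 position, *Gzme* at 3 and *Gzmg* at 0. Over the whole coding sequence *Gzmb* was 75.1% identical to *Gzmc* and 64.8% to *Gzmd*, and *Gzmd* was 93.3% identical to *Gzme*. No stretch of 50 bases in the *Gzmb* transcript occurred unchanged in the transcript of any other granzyme among the members (0 shared stretches in each pair). *Gzmd* and *Gzme* shared 110 such stretches and *Gzmc* and *Gzme* shared 32. *Gzmn*, a neighbour in the same cluster, was not compared. Values of *Gzmc* to *Gzmg* are therefore uncertain where the mapping could split reads between copies. For *Gzmb* exact sharing with the other members is limited to stretches shorter than 50 bases, and matches with mismatches were not counted.

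*Gzmb*, which encodes granzyme B, was the most abundant member in all stimulated libraries. Its level was 10.2 and 11.7 FPKM in unstimulated replicates 1 and 2, 1494 and 1565 FPKM in control replicates 1 and 2, and 2282 and 4283 FPKM in SMF replicates 1 and 2. The 3 groups did not overlap, where 24.8%, 39.7% and 37.4% of tested genes had both libraries above both in control against unstimulated, SMF-treated against unstimulated and SMF-treated against control cells. The gap between the SMF libraries (1.88-fold) was wider than that between the control libraries (1.05-fold) or the unstimulated libraries (1.15-fold). The group means were 10.9 ± 1.07 (SD, n = 2), 1529 ± 50.3 (SD, n = 2) and 3282 ± 1415 FPKM (SD, n = 2). Among all genes ordered by FPKM, *Gzmb* ranked 5827 and 5456 in fresh cells, 27 and 24 after stimulation without magnets, and 9 and 3 after stimulation in the field. In SMF replicate 2 it made up 0.864% of all transcripts by TPM (transcript abundance scaled to one total per library), against 0.00212% in unstimulated replicate 1.

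**Figure D1:**
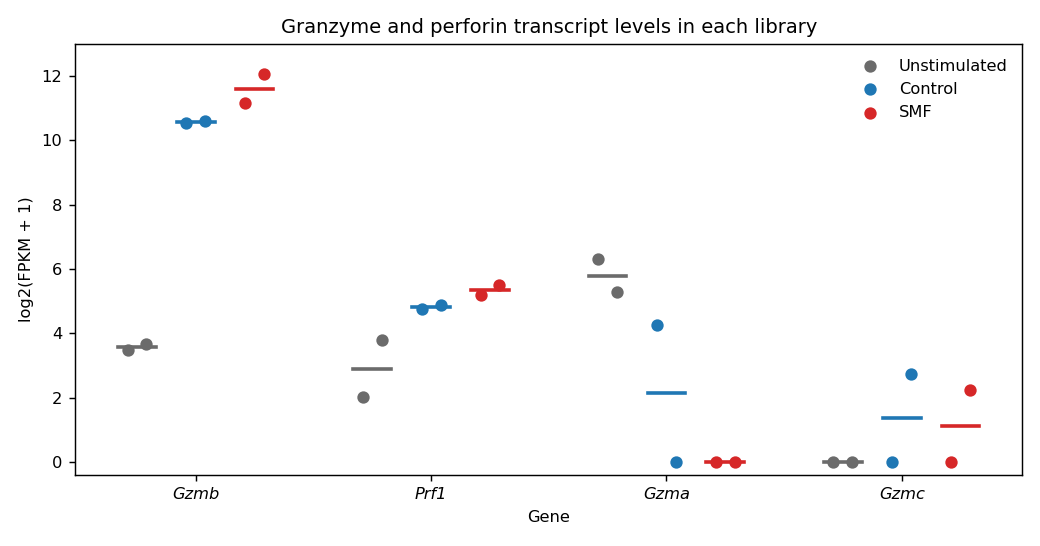
Levels of the 4 tested members, as log2(FPKM + 1), in each of the 6 libraries. Points are libraries, short lines are group means, and colors mark the Unstimulated, Control and SMF groups. *Gzmb* runs from 10.2 FPKM in unstimulated replicate 1 to 4283 FPKM in SMF replicate 2, *Prf1* rises over a smaller range, and *Gzma* is at 0 in 3 of the libraries.

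Stimulation without magnets was compared with fresh cells by limma on log2(FPKM + 1) over 14991 genes, with a gene called where it differed by 2-fold or more and the unadjusted p was 0.05 or lower. *Gzmb* rose by 7.01 on the log2 scale (SE 0.32, Benjamini-Hochberg adjusted p = 0.00184), and its mean FPKM in control cells was 140.0 times that in unstimulated cells, with ratios between single libraries of 128 to 154. *Prf1* rose as well and *Gzma* fell. Thus 2 of the 4 tested members were called higher, in a comparison that called 12.3% of all tested genes higher. Of the same 4, 1 was called lower, where 12.6% of tested genes were. In bulk RNA, fewer cells of a type and less RNA per cell cannot be told apart. The call of *Gzmb* held in each of the 15 alternative settings, with log2 fold changes of 6.87 to 7.37.

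SMF-treated cells were compared with unstimulated cells in the same fit, which shares the unstimulated libraries with the comparison above. *Gzmb* was higher by 8.04 on the log2 scale (SE 0.32, adjusted p = 0.00107), and its mean FPKM was 300.5 times that of unstimulated cells, with single-library ratios of 195 to 421. Here 2 members were called higher, against 22.4% of tested genes, and 1 was called lower, against 14.8%. The 2 were again *Gzmb* and *Prf1*, and the 1 was *Gzma*.

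Between SMF-treated and control cells, the comparison that bears on the field, *Gzmb* was the 1 member called higher, against 12.5% of tested genes called higher, and 0 members were called lower, against 5.72%. With limma, 0 members were lower at an unadjusted p under 0.05. The mean FPKM of *Gzmb* in SMF-treated cells was 2.15 times that in control cells, with single-library ratios of 1.46 to 2.87. The log2 fold change was 1.03 (SE 0.32, unadjusted p = 0.0178 by limma), and it did not pass the adjustment over all genes (adjusted p = 0.179). The median over all 14991 tested genes was 0.32 in this comparison, beside -0.05 for control against unstimulated cells and 0.27 for SMF-treated against unstimulated cells. When every library was shifted to one median, the *Gzmb* difference was 0.69 (limma unadjusted p = 0.0721, adjusted p = 0.322) and was no longer called.

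The *Gzmb* difference also depended on single libraries. Without SMF replicate 2 it was 0.58, and without SMF replicate 1 it was 1.49. Without control replicate 1 it was 0.998 and without control replicate 2 it was 1.06, and neither was called. It was above 0 in all 14 alternative settings and called in 7 of them. Scaled to *Actb*, which encodes beta-actin, *Gzmb* was at 323 and 130 FPKM per 100 FPKM of *Actb* in control replicates 1 and 2 and at 169 and 440 in SMF replicates 1 and 2. On this scale the control and SMF groups overlapped, and the log2 fold change was 0.42 (adjusted p = 0.917 by limma). *Actb* itself was not level. It was at 463 and 1208 FPKM in control replicates 1 and 2 and at 1348 and 974 FPKM in SMF replicates 1 and 2. In unstimulated replicates 1 and 2 it was at 954 and 962 FPKM. Results scaled to *Actb* here and below therefore lean on its low level in control replicate 1. The share of FPKM in protein-coding genes also moved with the SMF group, at 69.2% and 68.7% in its libraries, against 49.1% and 50.5% in control and 49.3% and 49.7% in unstimulated libraries. Its part in the *Gzmb* difference was not tested.

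**Figure D2:**
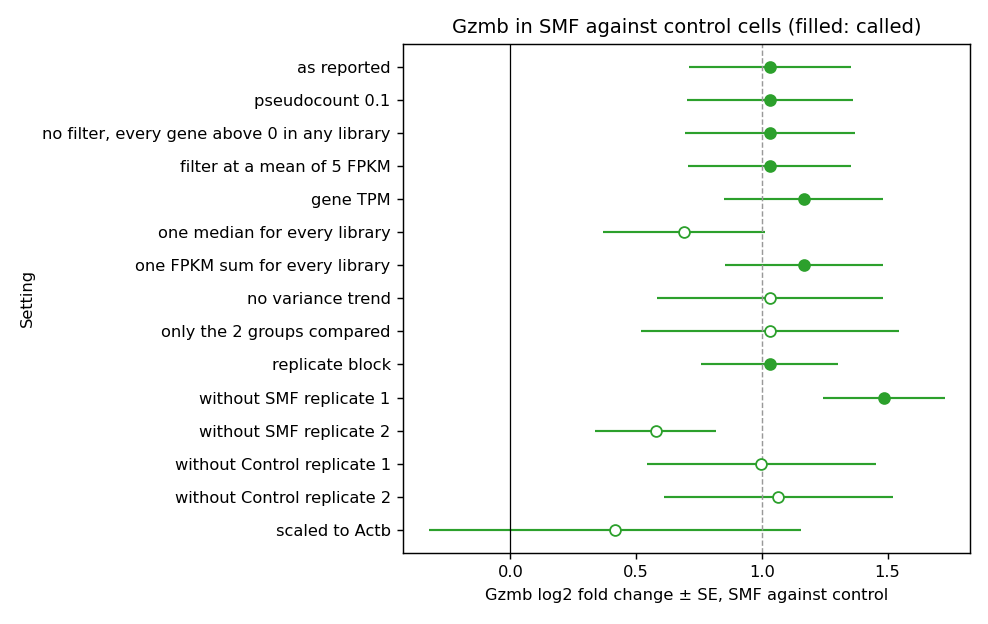
The log2 fold change of *Gzmb* between SMF-treated and control cells as reported and under the 14 alternative settings. Points are limma estimates, bars are ± 1 SE, filled points were called, and the dashed line marks a 2-fold change. All points lie above 0, from 0.42 with scaling to *Actb* to 1.49 without SMF replicate 1, and 7 of the 14 alternatives are filled.

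Reads on *Gzmb* were spread unevenly over its 5 exons. Exon 1 (chr14:56262095-56262260) had a mean coverage of 17.3 and 96.5 reads per base in control replicates 1 and 2 and 66.4 and 137 in SMF replicates 1 and 2. Exon 4 (chr14:56260182-56260442), in the middle of the coding sequence, had 298 and 760 reads per base in control replicates 1 and 2 and 1530 and 2627 in SMF replicates 1 and 2. The ratio of exon 4 to exon 1 was 17.2 and 7.87 for the controls and 23.1 and 19.1 for SMF-treated cells. Exons 3 and 4 were the deepest in all stimulated libraries, and both ratios in SMF-treated cells were above both in control cells. In unstimulated cells exon 1 was listed at 0 in both libraries and exon 4 was at 3.59 and 1.39 reads per base, so that the fresh level of *Gzmb* rests on 1318 and 2914 aligned bases, against 179971 and 487553 in control cells.

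*Prf1*, which encodes perforin, was at 3.07 and 12.8 FPKM in unstimulated replicates 1 and 2, 25.9 and 28.6 FPKM in control replicates 1 and 2, and 35.7 and 44.2 FPKM in SMF replicates 1 and 2. The groups did not overlap, where 24.8% and 39.7% of all tested genes had both control and both SMF libraries above both unstimulated ones. The widest gap within a group, 4.16-fold, was between the unstimulated libraries. Control cells were higher than unstimulated cells by 1.91 on the log2 scale (SE 0.60, limma unadjusted p = 0.0174, adjusted p = 0.103). The call was lost with only the 2 groups compared in the fit (limma unadjusted p = 0.0540). Without control replicate 1 or control replicate 2 the difference was 1.98 and 1.85, and neither was called. In that setting the lone control library was assumed to vary like the others. Without unstimulated replicate 1 it was 1.04, and without unstimulated replicate 2 it was 2.79. SMF-treated cells were higher than unstimulated cells by 2.45 (SE 0.60, adjusted p = 0.0332). Without SMF replicate 2 this difference was 2.30 and was not called. Without unstimulated replicate 1 it was 1.57, and without unstimulated replicate 2 it was 3.32.

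SMF-treated and control cells differed in *Prf1* by 0.53 (SE 0.60, limma adjusted p = 0.633), a value within its error, and the sign turned with scaling to *Actb* (-0.0689). Both SMF libraries were above both control libraries in FPKM, which was also so for 37.4% of all tested genes. A p that misses the threshold does not show that perforin levels were alike.

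The 2 annotated *Prf1* transcripts took changing shares of this level. The 2-exon transcript held 82.7% and 85.7% of *Prf1* FPKM in control replicates 1 and 2, but 0% in SMF replicate 1 and 84.7% in SMF replicate 2. The 3-exon transcript, with a first exon of 22 bases and a longer last exon, held the whole of SMF replicate 1 and of unstimulated replicate 2. The transcripts share most of their exon sequence, and the libraries of 1 group gave opposite splits, so the split is given as the files list it and the gene sum was used for all tests. Taken alone, the 2-exon transcript had mean levels of 0.654, 23.0 and 18.7 FPKM in unstimulated, control and SMF-treated cells, but the last is the mean of 0 and 37.5 FPKM in SMF replicates 1 and 2, on either side of the 21.4 and 24.5 FPKM of the controls, so the groups overlapped.

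**Figure D3:**
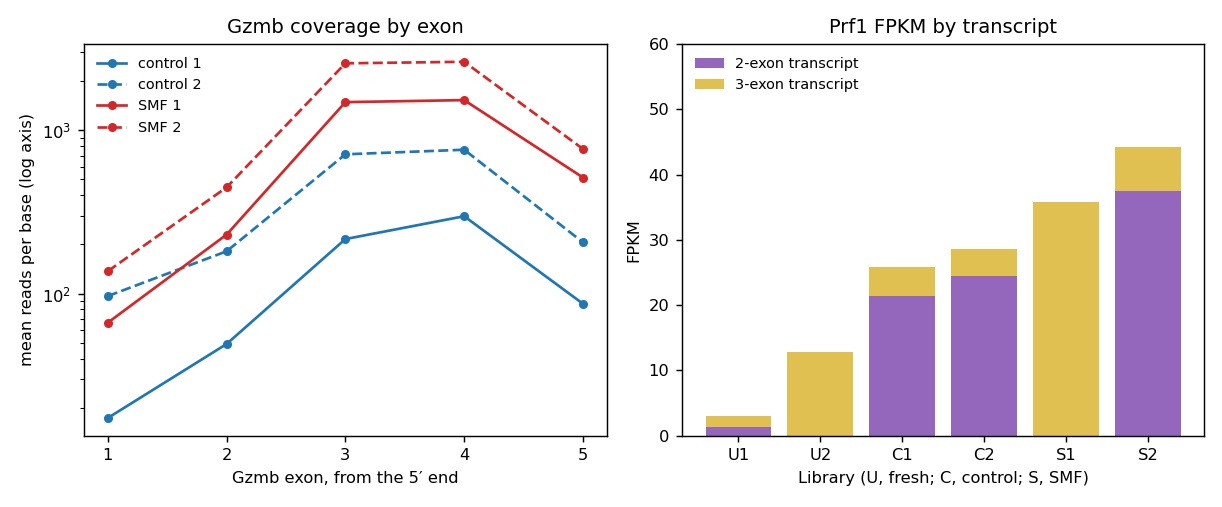
Left, mean coverage of the 5 *Gzmb* exons, numbered from the 5′ end, in the control and SMF libraries on a log axis. Right, *Prf1* FPKM in each library, stacked by annotated transcript. Exon 4 of *Gzmb* is 7.87 to 23.1 times as deep as exon 1, and SMF replicates 1 and 2 assign *Prf1* to different transcripts.

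*Gzma*, which encodes granzyme A, ran the other way. It was at 77.7 and 38.2 FPKM in unstimulated replicates 1 and 2, at 18.3 FPKM in control replicate 1, and listed at 0 in control replicate 2 and in both SMF libraries. Both control libraries were below both unstimulated ones, as in 26.6% of tested genes, and both SMF libraries were too, as in 26% of them. No member had both SMF libraries below both control libraries, a pattern seen in 17.4% of tested genes. The value in control replicate 1 rested on 1350 aligned bases. *Gzma* was called lower in control than in unstimulated cells (limma unadjusted p = 0.0310, adjusted p = 0.142). The call was lost without either unstimulated library (limma unadjusted p = 0.233 for replicate 1 and unadjusted p = 0.145 for replicate 2), without control replicate 2 (unadjusted p = 0.0654), with a pseudocount of 0.1 (unadjusted p = 0.0749), with only the 2 groups compared in the fit (unadjusted p = 0.0847) and with scaling to *Actb* (unadjusted p = 0.0504). It was also called lower in SMF-treated than in unstimulated cells (adjusted p = 0.0274), a call lost without unstimulated replicate 1 (limma unadjusted p = 0.0869) or unstimulated replicate 2 (unadjusted p = 0.0586), and no fold is given since the SMF libraries are listed at 0. Between SMF-treated and control cells it was not called (limma unadjusted p = 0.154). Without control replicate 2 it was called lower there (limma unadjusted p = 0.00272, adjusted p = 0.137). A listing at 0 is not in general proof of absence in these files, since all 37 mitochondrial genes were also listed at 0 in every library. *Gzma* differs from those genes in that the same files list it above 0 in some libraries. Its zeros fell in the deepest libraries, control replicate 2 (217 Mb) and SMF replicates 1 and 2 (311 and 273 Mb). Whether its transcript was absent there was not tested.

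The balance between granzymes A and B was thus opposite in fresh and stimulated cells. *Gzma* made up 88.4% and 76.6% of summed granzyme FPKM in unstimulated replicates 1 and 2, and *Gzmb* made up 98.8% to 99.6% in control cells and 99.9% to 100% in SMF-treated cells. By level per transcript length, the order in unstimulated cells was *Gzma* first, with *Gzmb* and *Prf1* overlapping after it. In control cells *Gzmb* was first and *Prf1* second, and the same order held in SMF-treated cells. The ratio of *Gzmb* to *Prf1* FPKM was 3.31 and 0.915 in unstimulated cells, 57.6 and 54.8 in control cells and 63.8 and 96.8 in SMF-treated cells.

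The fresh cells also carried RNA of other cell types, and the summed levels of most of these marker lists were, like *Gzma*, higher in fresh cells than in stimulated ones. Of 7 genes that mark natural killer (NK) cells, which are rich in granzyme A, 6 and 5 were above 0 in unstimulated replicates 1 and 2, with summed levels of 87.1 and 70.0 FPKM and *Tyrobp*, an adaptor of NK receptors, as the most abundant at 59.9 and 52.7 FPKM. *Tyrobp* and *Fcer1g* are expressed by myeloid cells as well, so the sum is not specific to NK cells. The same sum was 0 and 2.29 FPKM in control replicates 1 and 2 and 0.401 and 1.70 FPKM in SMF replicates 1 and 2. Between the control libraries it did not follow *Gzma*, which was at 18.3 FPKM in replicate 1 and listed at 0 in replicate 2. The defining NK receptor gene *Ncr1* was at 10.8 and 0.947 FPKM in unstimulated cells and listed at 0 in all 4 stimulated libraries, as was *Klrb1c*, at 3.04 and 6.71 FPKM in unstimulated cells. The 5 B cell markers summed to 281 and 270 FPKM in unstimulated cells and to 44.6 to 73.0 FPKM in stimulated libraries, with *Ighm* the most abundant in all 6 libraries. Between control and SMF-treated cells the members went both ways. *Cd79a*, at 13.4 and 6.96 FPKM in control and 1.85 and 2.43 FPKM in SMF-treated cells, was called lower in SMF-treated cells (log2 -1.78), and *Ighm*, at 24.96 and 36.9 FPKM in control and 68.5 and 65.1 FPKM in SMF-treated cells, was called higher (log2 1.11). The call of *Cd79a* held in all 14 alternative settings, and that of *Ighm* was lost with one median for every library, without control replicate 1 and with scaling to *Actb*. Their part in the *Gzmb* difference was not tested. The 6 myeloid markers summed to 116 and 149 FPKM in unstimulated cells and to 41.1 to 53.8 FPKM in stimulated libraries, in each of which *Csf1r* led and *Lyz2* was listed at 0. The 5 markers of mast cells and basophils, which express other proteases of the same chromosome 14 cluster, summed to 15.3 and 7.90 FPKM in unstimulated cells, most of it *Cpa3*, and to at most 0.682 FPKM in stimulated libraries. The 3 erythroid markers summed to 18.3 and 19.1 FPKM in unstimulated cells and to 1.51 to 10.1 FPKM in stimulated libraries, where all of it was *Alas2*. *Alas2* also made up 18.3 and 16.3 FPKM of the unstimulated sums, and of the globin genes *Hbb-bs* was listed at 0 in all 6 libraries and *Hba-a1* in all but unstimulated replicate 2, at 2.77 FPKM. The sum of the 3 CD4 T cell markers overlapped between fresh and stimulated cells, with levels of 29.0 and 11.9 FPKM in unstimulated, 11.9 and 21.5 FPKM in control and 11.9 and 11.8 FPKM in SMF replicates 1 and 2. *Foxp3*, the factor of regulatory T cells, was the most abundant of the 3 in every library and was called in none of the comparisons as reported. Its difference in control against unstimulated cells, 0.51 on the log2 scale, ran from -0.43 to 1.45 over the alternatives. Exons of *Foxp3* overlap those of *Flicr* on the same strand, so the value may not be of *Foxp3* alone. *Cd40lg*, at 6.21 and 2.34 FPKM in unstimulated cells and listed at 0 in all 4 stimulated libraries, was called lower in both stimulated groups. *Cd4*, at 2.05 and 4.68 FPKM in unstimulated and 2.18 FPKM in control replicate 2, was listed at 0 in control replicate 1 and both SMF libraries and was called lower in SMF-treated than in unstimulated cells, a call lost without any 1 of the 4 libraries compared. The part of these cells in the *Gzma* and *Prf1* levels of fresh cells was not tested.

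**Figure D4:**
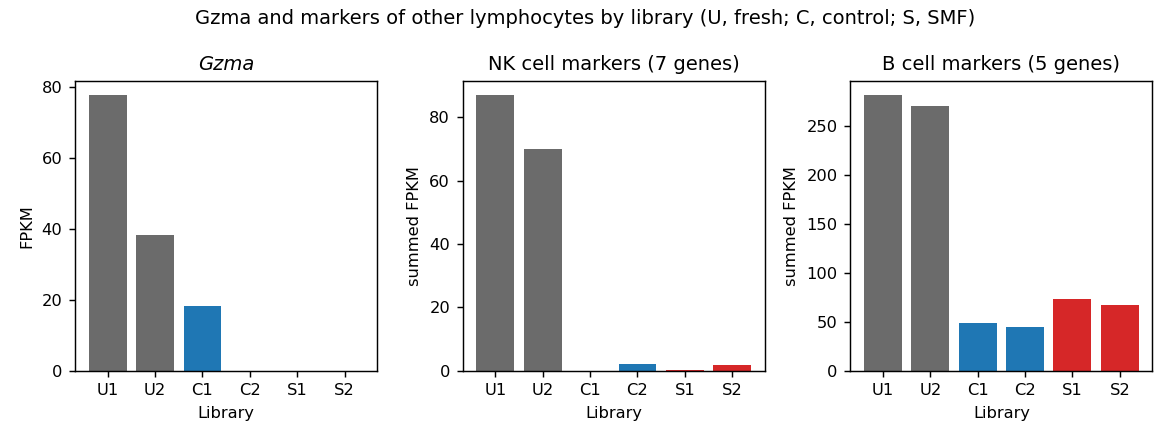
*Gzma* FPKM (left), the summed FPKM of 7 NK cell markers (middle) and of 5 B cell markers (right) in the unstimulated (U), control (C) and SMF (S) libraries. Bars are single libraries and start at 0. *Gzma* and the NK sum are highest in the unstimulated libraries, and the NK sum is at most 2.29 FPKM after stimulation.

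*Gzmc*, which encodes granzyme C, was listed at 0 in both unstimulated libraries, in control replicate 1 and in SMF replicate 1, and was at 5.67 FPKM in control replicate 2 and 3.71 FPKM in SMF replicate 2. These values rest on 1100 and 907 aligned bases. In control replicate 2 the coverage was 4.95 reads per base on exon 5 and 0 on exons 1 to 3, whereas in SMF replicate 2 exon 3 was the deepest at 3.904 reads per base and exon 5 was at 0. *Gzmc* was called in none of the 3 comparisons (limma unadjusted p = 0.283, 0.373 and 0.836). The other chromosome 14 granzymes, *Gzmd*, *Gzme*, *Gzmf* and *Gzmg*, were listed at 0 in all 6 libraries, as were *Gzmk*, a granzyme of memory T cells, and *Gzmm*, a granzyme known from NK cells. Of the 9 neighbouring protease genes of the chromosome 14 cluster, 8 were also listed at 0 throughout. The other, *Mcpt8*, a basophil protease, was at 0.804 FPKM in unstimulated replicate 2, at 0.310 FPKM in SMF replicate 1 and at 0 elsewhere.

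The promoters of the 3 members that were called in any comparison are shown as the 250 bases before the RefSeq start (GRCm38.p6), since *Gzmb* and *Prf1* rose and *Gzma* fell with stimulation. Capitals mark matches, on either strand, to TGTGGT (the core bound by RUNX factors, ACCACA on the other strand), TGANTCA (the AP-1 site) and TGACGTCA (the cAMP response element). None of the 3 motifs contains another, and no matches overlapped.
Gzmb, chr14:56262335-56262584, minus strand: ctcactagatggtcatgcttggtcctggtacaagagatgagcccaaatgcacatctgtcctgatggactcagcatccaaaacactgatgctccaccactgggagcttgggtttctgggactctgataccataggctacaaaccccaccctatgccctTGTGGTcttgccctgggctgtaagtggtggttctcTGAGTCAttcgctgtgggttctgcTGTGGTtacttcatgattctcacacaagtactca
Prf1, chr10:61297586-61297835, plus strand: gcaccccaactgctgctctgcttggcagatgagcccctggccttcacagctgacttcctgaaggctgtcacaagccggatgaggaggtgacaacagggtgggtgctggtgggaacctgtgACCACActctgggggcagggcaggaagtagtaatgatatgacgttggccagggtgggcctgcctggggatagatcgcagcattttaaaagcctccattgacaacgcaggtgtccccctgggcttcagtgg
Gzma, chr13:113100982-113101231, minus strand: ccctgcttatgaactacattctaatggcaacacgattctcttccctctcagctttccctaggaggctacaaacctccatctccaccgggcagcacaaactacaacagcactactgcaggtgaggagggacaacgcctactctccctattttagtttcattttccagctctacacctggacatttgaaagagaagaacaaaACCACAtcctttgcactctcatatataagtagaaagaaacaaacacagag
The *Gzmb* window held TGTGGT 2 times, 93 and 34 bases before the start, with 1 match to TGANTCA between them at 58 bases. *Prf1* held TGTGGT 1 time, at 130 bases, and *Gzma* 1 time, at 50 bases, and neither held the others. TGTGGT was not particular to the called members. The windows of *Gzmc*, *Gzmd*, *Gzme*, *Gzmf* and *Gzmg* held it 2 times each, that of *Gzmm* 1 time and that of *Gzmk* 0 times. TGACGTCA occurred 1 time each in *Gzmc*, *Gzmf* and *Gzmg*. AGGTGTGA and TTCNNNGAA were also searched for and had 0 matches in the 3 windows shown. Of 27025 RefSeq promoter windows of this length, 14.2% held TGTGGT, 6.87% held TGANTCA and 1.62% held TGACGTCA. A match is a description of the letters, and binding was not measured. The RefSeq start of *Gzmb* lies 74 bases upstream of the start in the authors' annotation.

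Genes that act on the granzymes and perforin were described by lists. The serpins, inhibitors of serine proteases, protect the killer cell from its own enzymes. Of 5 serpin genes 4 were tested, and 2 were called higher in control than in unstimulated cells and 0 lower, in a comparison that called 12.3% of all tested genes higher and 12.6% lower. *Serpinb9*, the inhibitor of granzyme B, was at 1.32 and 0.741 FPKM in unstimulated cells, 31.8 and 46.3 FPKM in control cells and 35.4 and 52.0 FPKM in SMF-treated cells. It rose by 4.29 in control cells (SE 0.42, adjusted p = 0.00800) and by 4.45 in SMF-treated cells (adjusted p = 0.00410), both against unstimulated cells, and both stimulated groups lay above the fresh cells. *Serpinb6b*, a serpin of the same clade, was at 9.51 and 9.30 FPKM in unstimulated cells and at 53.9 to 91.9 FPKM in the stimulated libraries, with calls in both comparisons (log2 3.02 and 2.74). Between SMF-treated and control cells 0 of the 4 serpins were called or had an unadjusted p under 0.05 by limma, beside 12.5% of all tested genes called higher and 5.72% called lower. The differences of *Serpinb9* and *Serpinb6b* were 0.16 and -0.28, and those of *Serpina3g* and *Serpinb6a* were larger and of opposite sign, at 1.96 and -1.08. *Serpina3g* was at 0 and 6.61 FPKM in control and 8.40 and 11.2 FPKM in SMF-treated cells, and was called higher without control replicate 2. *Serpinb6a* was at 47.5 and 163 FPKM in control and 32.02 and 52.7 FPKM in SMF-treated cells, and was called lower with one median for every library, without control replicate 1 and with scaling to *Actb*. The list's median was 1.76 for control and 2.14 for SMF-treated against unstimulated cells, and -0.06 for SMF-treated against control cells, the last over members that went both ways.

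The second list holds genes that mature, sort and store granzymes and perforin, all 13 of them tested. In control against unstimulated cells 2 were called higher and 1 lower, and in SMF-treated against unstimulated cells 6 were called higher and 2 lower. Over all tested genes 12.3% were called higher and 12.6% lower in the first comparison and 22.4% and 14.8% in the second, so that 2 of 13 and 1 of 13, and the 2 of 13 lower, are near the shares of all genes. With scaling to *Actb* the 6 called higher in SMF-treated cells became 3, with the calls of *Calr*, *Srgn* and *M6pr* lost, and the call of *M6pr* was also lost without unstimulated replicate 1 or either SMF library. *Nkg7*, a membrane protein of cytotoxic granules, was at 12.0 and 27.7 FPKM in unstimulated cells, 77.2 and 92.6 FPKM in control cells and 137 and 141 FPKM in SMF-treated cells, with log2 fold changes of 2.15 and 2.86 against unstimulated cells. *Gnptab*, the catalytic subunit of the enzyme that tags granzymes with mannose 6-phosphate, rose in both (2.07 and 2.97), while its gamma subunit *Gnptg* fell in SMF-treated cells (-1.46). *Ctsh*, an aminopeptidase, was at 9.11 and 10.8 FPKM in unstimulated cells and at most 2.12 FPKM in stimulated libraries, and was called lower in both. In control against unstimulated cells the call of *Gnptab* was lost without unstimulated replicate 2 or control replicate 1, and that of *Ctsh* without unstimulated replicate 2. *Ctsc*, the dipeptidyl peptidase that activates granzymes, was at 23.7 and 48.3, 21.1 and 18.4, and 37.3 and 35.0 FPKM in the 3 groups and was called in none of the comparisons.

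In SMF-treated against control cells 3 of the 13 were called higher and 0 lower, beside 12.5% and 5.72% of all tested genes, with 4 higher and 1 lower at an unadjusted p under 0.05 by limma and 0 at an adjusted p under 0.05. *Srgn*, the proteoglycan core on which granule proteins are packed, was at 62.0 and 75.1 FPKM in control and 154 and 137 FPKM in SMF-treated cells (log2 1.07, adjusted p = 0.167). *Cst7*, which encodes cystatin F, an inhibitor of the granzyme-activating cathepsins, was at 28.3 and 31.5 FPKM in control and 65.1 and 59.1 FPKM in SMF-treated cells (log2 1.03). *M6pr*, a mannose 6-phosphate receptor, was at 23.5 and 41.9 FPKM in control and 84.0 and 73.4 FPKM in SMF-treated cells (log2 1.29). In each the SMF libraries lay above the control libraries, as they did for 37.4% of all tested genes. *Gnptg* differed by -0.68 and was called lower with one median for every library. The difference of *Ctsh* was -0.82 and ran from -2.24 to 0 over the alternatives, and it was called lower without control replicate 1. The list's median was 0.84 beside 0.32 for all tested genes, and 0 of the 13 were called higher once libraries were set to one median, without SMF replicate 1, without control replicate 1 or with scaling to *Actb*. Without SMF replicate 2 the count was 2.

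Of 8 symbols for the machinery of granule release, 7 were matched and tested, and *Vamp7* was not analysed here. In control against unstimulated cells 2 were called higher, beside 12.3% of all tested genes. They were *Stx11* (log2 2.35), a syntaxin needed for granule fusion, and *Ap3b1* (log2 1.999), a subunit of the adaptor that moves granules. *Stx11* was at 0 and 0.844 FPKM in unstimulated cells and at 5.48 to 8.06 FPKM in the stimulated libraries. *Rab27a*, the small GTPase that docks granules at the membrane, was at 8.97 and 10.2 FPKM in unstimulated cells, 6.72 and 10.3 FPKM in control cells and 25.7 and 25.6 FPKM in SMF-treated cells. It was the 1 gene of 7 called higher in SMF-treated against control cells, beside 12.5% of all tested genes (log2 1.51, SE 0.38, adjusted p = 0.150), a call kept in 13 of 14 alternative settings and lost with scaling to *Actb*. Exons of *Rab27a* overlap those of *Gm27186* on the same strand, so the value may not be of *Rab27a* alone. In SMF-treated against unstimulated cells 3 of the 7 were called higher, beside 22.4% of all tested genes. These were *Stx11*, *Ap3b1* and *Rab27a*, and the call of *Rab27a* was lost without either SMF library and with scaling to *Actb*. *Lyst* and *Stxbp2*, not called in SMF-treated against control cells (log2 0.76 and 1.08), depended on the setting there. Their differences ran from -0.24 to 1.76 and from 0.31 to 1.85 over the alternatives. The list's median was -0.18, 0.78 and 0.70 in control against unstimulated, SMF-treated against unstimulated and SMF-treated against control cells.

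**Figure D5:**
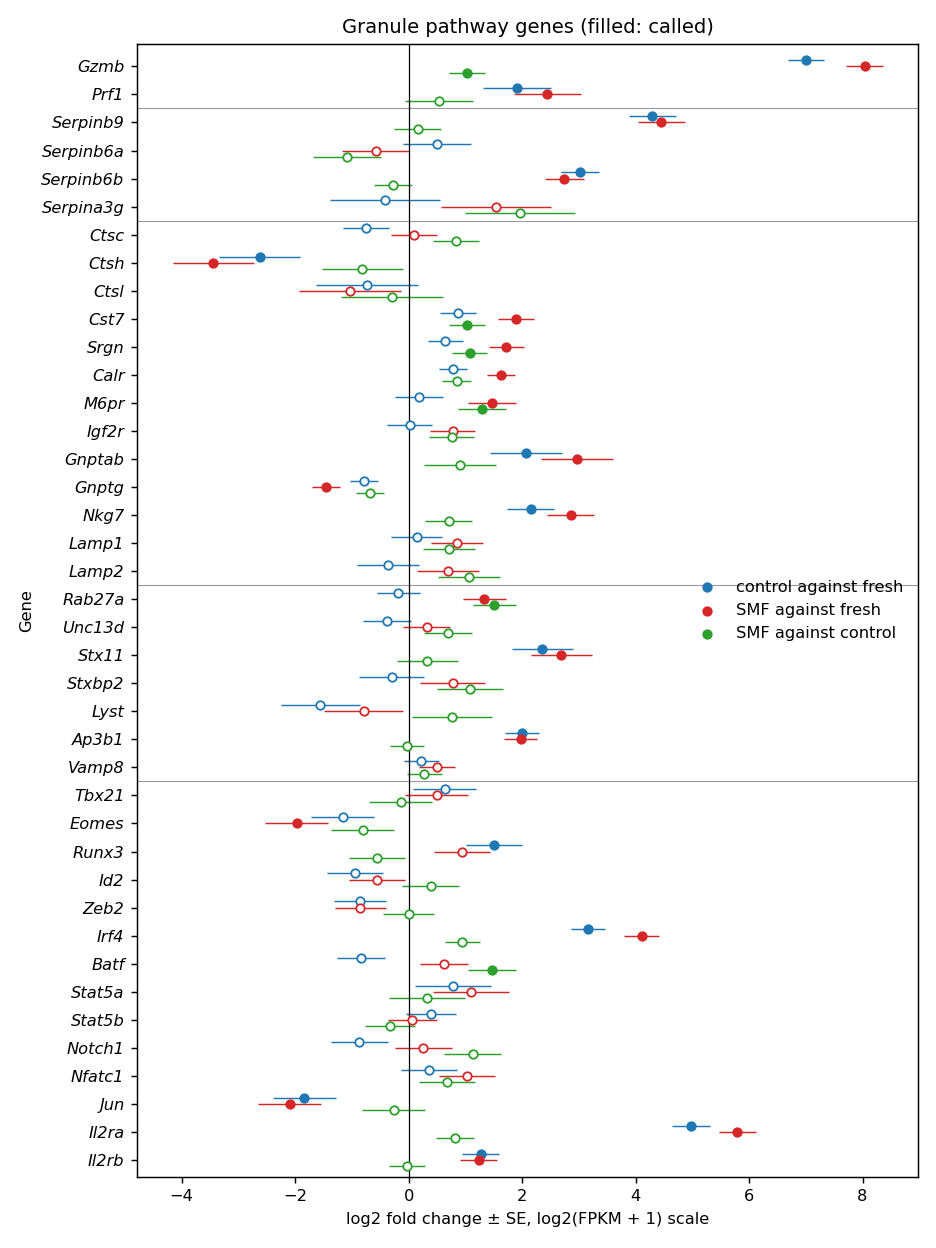
Log2 fold changes of *Gzmb*, *Prf1* and the tested genes of the serpin, processing and storage, release and regulator lists, in that order from the top. Points are limma estimates on log2(FPKM + 1), bars are ± 1 SE, and filled points were called. Most filled points are in the comparisons with fresh cells, such as *Serpinb9* at 4.29 and 4.45.

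The fourth list holds 15 regulators of granzyme and perforin transcription, of which 14 were tested and *Prdm1* was below the filter. In control against unstimulated cells 4 were called higher and 1 lower, beside 12.3% and 12.6% of all tested genes. *Il2ra*, the alpha chain of the interleukin-2 receptor, was at 0.708 and 0.894 FPKM in unstimulated cells, 52.4 and 59.2 FPKM in control cells and 86.5 and 113 FPKM in SMF-treated cells, the rise being 4.98 and 5.80 on the log2 scale. *Irf4*, a factor induced by T cell receptor signals, was at 3.79 and 3.12, 38.2 and 39.3, and 76.5 and 74.9 FPKM in the 3 groups. *Runx3* (log2 1.51) and *Il2rb* (log2 1.27) were the others called higher. The 1 called lower was *Jun*, an AP-1 subunit, at 21.3 and 22.6, 8.33 and 3.42, and 6.43 and 2.86 FPKM in the 3 groups, and it was called lower in SMF-treated cells as well (log2 -1.84 and -2.10). Both calls of *Jun* were lost without either unstimulated library, the first also without control replicate 2 and with scaling to *Actb*, and the second also without SMF replicate 2. Neither T-box factor was called higher in any comparison. *Tbx21*, which encodes T-bet, was at 6.15 and 4.57 FPKM in unstimulated cells and at 4.76 to 12.7 FPKM in stimulated libraries and was not called, and *Eomes*, at 26.9 and 12.7 FPKM in unstimulated cells, was called lower in SMF-treated cells at 2.97 and 5.26 FPKM (log2 -1.97). The call of *Eomes* was lost without unstimulated replicate 1 or SMF replicate 1, and that of *Runx3* without unstimulated replicate 1 or control replicate 1. The calls of *Runx3* and *Il2rb* in control cells were also lost with scaling to *Actb*. In SMF-treated against control cells 1 of 14 was called higher, beside 12.5% of all tested genes. It was *Batf*, an AP-1 family factor, at 4.46 and 7.98 FPKM in control and 20.3 and 16.7 FPKM in SMF-treated cells (log2 1.47, adjusted p = 0.168). That call was lost without SMF replicate 1 and with scaling to *Actb*. With gene TPM or one FPKM sum for every library, 3 of the 14 were called higher there, *Irf4* and *Notch1* being the added genes. The list's median was 0.37, 0.56 and 0.16 in the 3 comparisons in the order above.

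Of 8 stimulation markers, 4 were called higher and 3 lower in control against unstimulated cells, beside 12.3% and 12.6% of all tested genes, with the same counts in SMF-treated against unstimulated cells, beside 22.4% and 14.8%. In the first comparison the 3 lower became 1 with scaling to *Actb*, without either unstimulated library and without control replicate 1, and 2 with one median for every library and without control replicate 2. *Cd44*, a marker of activated T cells, was at 6.11 and 6.62, 18.3 and 23.4, and 45.0 and 53.5 FPKM in unstimulated, control and SMF-treated cells. It was the 1 marker of 8 called higher in SMF-treated against control cells, a share equal to the 12.5% of all tested genes (log2 1.21, adjusted p = 0.167), a call lost without SMF replicate 2, with one median for every library and with scaling to *Actb*. *Cd69* was called in none of the 3 comparisons.

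As a description over the 6 libraries, the 5 genes that averaged 5 FPKM or more and whose log2(FPKM + 1) was most like that of *Gzmb* were *Il2ra*, *Ccnb2*, *Tnfrsf4*, *Kpna2* and *Pgam1*, with Pearson r of 0.999, 0.999, 0.997, 0.997 and 0.997. For *Prf1* they were *Ebna1bp2*, *Got2*, *Pole3*, *Gins4* and *Slbp*, with r of 0.997, 0.997, 0.996, 0.996 and 0.996. The libraries fall into fresh and stimulated cells, and r was above 0.9 for 965 of 9393 genes with *Gzmb* and for 758 with *Prf1*. An r above 0.9 is thus common here, and genes at the higher r of those named were not counted.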

How the data were processed

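RNA-Seq files of 6 libraries were used, with groups and replicate numbers from the sample titles. The authors deposited 1 StringTie 1.3.5 file per library (GRCm38, GENCODE M19, annotated transcripts only, stranded reads). Each holds FPKM and TPM, which correct for transcript length and sequencing depth, and raw coverage in reads per base. The submitters' processing notes also name Trimmomatic 0.36 and HISAT2. Another deposited table, of gene FPKM, was left out because the names of its 3 value columns fit none of the samples.

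Gene FPKM was summed over transcripts. Genes averaging 1 FPKM or more (14991 of 54446) were fitted as log2(FPKM + 1) with limma 3.58.1 in R 4.3.3, over all 3 groups with a variance trend and 3 residual degrees of freedom. A fold change so computed understates the change of low genes. Calls used the study's thresholds, a 2-fold change and p of 0.05, with Benjamini-Hochberg adjustment over all tested genes. Depth is known as mapped bases, not as reads, so no counting intervals are given. Sequences and motifs were read with Python 3.11.15 and biopython 1.88 from GENCODE M21 and RefSeq. All 10 members were named, with every list gene that passed the filter eligible. The members and lists were chosen with earlier results of these data known. Results were recomputed with another pseudocount, filter or scaling, gene TPM, no trend, 2 groups alone, a replicate block, transcript choice and leaving out each library. The level of 1 B cell marker is not reported here.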

Additional observations from a re-analysis of the deposited data

How the results depend on the processing

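With 2 libraries a group, 3 residual degrees of freedom and SMF libraries in a folder of their own, the field and the folder cannot be told apart, and low members rest on few aligned bases. Members called in control against unstimulated cells were 2 higher and 1 lower. The count called higher was 1 with only the 2 groups compared and 1 to 2 when a library was left out. The count called lower was 0 with a pseudocount of 0.1, with only the 2 groups compared and with scaling to *Actb*, and 0 to 1 when a library was left out. In SMF-treated against unstimulated cells 1 to 2 were called higher and 0 to 1 lower when a library was left out. In SMF-treated against control cells the 1 member called higher became 0 with one median for every library, with no variance trend, with only the 2 groups compared and with scaling to *Actb*, and 0 to 1 when a library was left out, while 0 to 1 were called lower. A group left with 1 library was assumed to vary like the others. The causes were not tested. Scaling to *Actb* was chosen after seeing the data. Over all 169 log2 fold changes of members under alternatives, 146 kept direction and call, and 3 reversed, each in SMF-treated against control cells: *Gzmc* (-0.25 as reported) was 0.87 without SMF replicate 1 and ran from -1.62 to 1.12 without control replicates 1 and 2, and *Prf1* was -0.0689 with scaling to *Actb*.

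Genes called higher in SMF-treated against control cells numbered 1868, and 877 with one median, 442 with scaling to *Actb* and 841, 964 and 1123 without SMF replicate 1, SMF replicate 2 and control replicate 1. Genes called lower numbered 857, 1441 with one median and 526 without SMF replicate 1. In control against unstimulated cells the 1886 called lower became 1197 with a filter at 5 FPKM and 1151 with scaling to *Actb*. In SMF-treated against unstimulated cells the 3351 called higher became 1947 with scaling to *Actb*.

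Groups share replicate numbers, but deviations of same-numbered libraries correlated over genes by only 0.0963 (unstimulated and control), 0.0301 (unstimulated and SMF) and 0.0206 (SMF and control), so the numbers were not taken to pair libraries. With the replicate number as a block, 2 higher and 1 lower, 2 higher and 1 lower, and 1 higher and 0 lower members were called in the 3 comparisons, as without it. A block by folder date, possible for control against unstimulated cells, also gave 2 higher and 1 lower. In the 4 pathway lists the block added calls: *Serpina3g* higher and *Serpinb6a* lower in SMF-treated against control cells, and *Lyst* lower in control against unstimulated cells, where the block by folder date also added *Lyst* and *Eomes*, both lower.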
